A study of Mus musculus with 16 samples.

Results

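The genes described here are 10 genes of the marrow stroma and of bone: the niche genes Cxcl12, Kitl and Lepr, the fat-cell hormone gene Adipoq, the endothelial gene Cdh5, and the bone matrix genes Col1a1, Col1a2, Sparc, Ibsp and Bglap. They were taken by symbol from a list and are 10 of the 57132 genes counted. All 10 passed the filter on low counts that left 19152 genes for testing. Each was followed in 16 RNA sequencing libraries of mouse bone marrow, which make 8 groups of 2 libraries. The groups combine 2 genotypes, wild-type C57BL/6 mice (WT) and Nrf2-/- mice, with 4 treatments: PBS as the control, BMX-001, 5-fluorouracil (5-FU), and BMX-001 with 5-FU. Mice on BMX-001 received 0.5 mg/kg, starting 24 h ahead of 5-FU and repeated at intervals of 3 days. The dose of 5-FU, a chemotherapy drug that blocks thymidylate synthase, was 20 mg/kg, repeated on day 7. Marrow was collected on day 10, so 3 days after the repeat dose. Nrf2-/- mice lack NRF2, a transcription factor that switches on antioxidant and detoxifying genes. WT mice were males of 8 to 10 weeks. Nrf2-/- mice were bred from Nrf2+/- parents, and neither their age nor their sex stands in the labels used here, so age and sex cannot be told apart from genotype. The labels do not say whether the 2 libraries of a group came from different animals. If they did not, a p-value here covers the spread between the sequenced samples alone, and that spread may be technical.

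Blood stem cells live in marrow beside stromal cells that make the signals they depend on. Perivascular reticular cells, which carry the leptin receptor Lepr, secrete the chemokine Cxcl12, which holds stem cells and B cell precursors in the marrow through its receptor Cxcr4, and Kit ligand (Kitl), which supports stem cells through the receptor Kit. The same cells can give rise to osteoblasts, which lay down type I collagen and mineral-binding proteins, and to marrow fat cells. These cells are firmly attached to bone and vessels, and a flushed marrow suspension holds few of them among the blood cells. In bulk RNA, fewer cells of a type and less RNA per cell cannot be told apart.

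Library totals ran from 27305707 to 39909188 counts. Nfe2l2, the gene for NRF2, stood at 102 to 122 CPM (counts scaled to a common library size) in the WT libraries and at 6.48 to 16.7 CPM in the Nrf2-/- libraries. Nrf2-/- BMX-001 replicate 1 stood apart from the other libraries. Its score on the first principal component was 86.5, and the other 15 libraries scored -24.4 to 6.48. Malat1, a nuclear non-coding RNA, stood at 12210 CPM in it and at 2549 to 5345 CPM elsewhere. Some results for the members are therefore given both with and without it. Markers of mature bone and fat were uneven. Of the osteocyte genes, Sost had at most 2 counts in a library, Mepe at most 3 and Dmp1 at most 17, while Phex reached 111. Of 14 fat-cell genes, 7 averaged under 1 CPM, among them the lipid droplet gene Plin1 with at most 7 counts, Cidec with at most 3 and Lep with 0 in every library. The other 7 averaged 1 CPM or more, with Scd1 (143 CPM) and Apoe (136.5 CPM) the highest. Among the 7 were also the lipase gene Lpl (49.1 CPM), the lipid carrier gene Fabp4 (10.7 CPM) and the regulator gene Pparg (8.56 CPM), which other marrow cells also express. The summed level of the 14 ran from 218 to 437 CPM, with Scd1 and Apoe as its largest parts on average. The cartilage genes Acan and Col10a1 had at most 3 and 2 counts. Adipoq had 90 to 544 counts in the same libraries.

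Per kilobase of exon the members differed by more than an order of magnitude in level. Cxcl12 had by far the highest mean level, 45.95 ± 16.6 CPM per kb (SD, n = 16 libraries). Ibsp, which encodes bone sialoprotein, followed with 14.03 ± 4.94 CPM per kb. Sparc, the collagen-binding protein osteonectin, stood at 9.65 ± 4.02 CPM per kb. The next 4 in the order were Adipoq (6.26 ± 2.32 CPM per kb), Col1a1 (5.61 ± 3.15), Lepr (4.55 ± 1.62) and Col1a2 (4.12 ± 1.49). These neighbours lay within each other's spread over libraries. Genes measured in the same libraries share part of that spread, so it does not measure the difference between 2 of them. Kitl (2.70 ± 0.967 CPM per kb) and Cdh5 (2.49 ± 0.665) came below them and also lay within each other's spread. Bglap, the gene for osteocalcin, was lowest at 0.749 ± 0.286 CPM per kb.

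Cxcl12 (ENSMUSG00000061353.12) was counted 2917 to 21283 times per library. In WT it stood at 417 and 322 CPM in the PBS libraries, 358 and 398 with BMX-001, 423 and 397 with 5-FU, and 341 and 516 with both drugs, each pair given as replicates 1 and 2. In Nrf2-/- marrow it stood at 88.3 and 334 CPM with PBS, 150.3 and 406 with BMX-001, 599.6 and 569.9 with 5-FU, and 239 and 452 with both. The WT libraries lay within a 1.60-fold range, while the Nrf2-/- libraries spanned a 6.79-fold range. The 3 Nrf2-/- values below the WT range each came from replicate 1 of a group whose replicate 2 lay within that range.

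Kitl (ENSMUSG00000019966.19) had its 3 lowest values in the same libraries as Cxcl12. Its WT values were 14.8 and 11.9 CPM with PBS, 17.3 and 18.4 with BMX-001, 21.2 and 19.9 with 5-FU, and 15.4 and 22.8 with both. Its Nrf2-/- values were 5.69 and 11.9 CPM with PBS, 6.62 and 13.1 with BMX-001, 22.3 and 25.4 with 5-FU, and 11.0 and 17.8 with both. In each genotype both 5-FU libraries lay above both PBS libraries.

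Lepr (ENSMUSG00000057722.18) stood at 30.3 and 22.3 CPM in WT with PBS, 32.6 and 39.0 with BMX-001, 37.0 and 33.5 with 5-FU, and 29.5 and 46.6 with both. Its Nrf2-/- levels were 8.60 and 42.1 CPM with PBS, 12.95 and 34.6 with BMX-001, 40.7 and 47.0 with 5-FU, and 17.8 and 38.4 with both. The gap within the Nrf2-/- PBS pair was wider than that between any 2 group means of Lepr.

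Adipoq (ENSMUSG00000022878.6), which encodes adiponectin, stood at 9.88 and 8.10 CPM in WT with PBS, 10.5 and 11.0 with BMX-001, 8.49 and 7.17 with 5-FU, and 7.90 and 12.8 with both. Its Nrf2-/- levels were 2.73 and 7.63 CPM with PBS, 3.55 and 8.70 with BMX-001, 11.3 and 14.6 with 5-FU, and 4.38 and 9.61 with both. In WT the 5-FU libraries lay among or below the PBS libraries, and in Nrf2-/- marrow they lay above them.

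Cdh5 (ENSMUSG00000031871.10) encodes the cadherin of endothelial cell junctions. It stood at 12.2 and 7.94 CPM in WT with PBS, 10.4 and 10.7 with BMX-001, 11.7 and 9.21 with 5-FU, and 10.1 and 12.45 with both. In Nrf2-/- marrow it stood at 7.05 and 11.8 CPM with PBS, 2.68 and 11.9 with BMX-001, 12.4 and 14.5 with 5-FU, and 9.86 and 12.4 with both. Only the library that stands apart lay below 7 CPM.

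**Figure D1:**
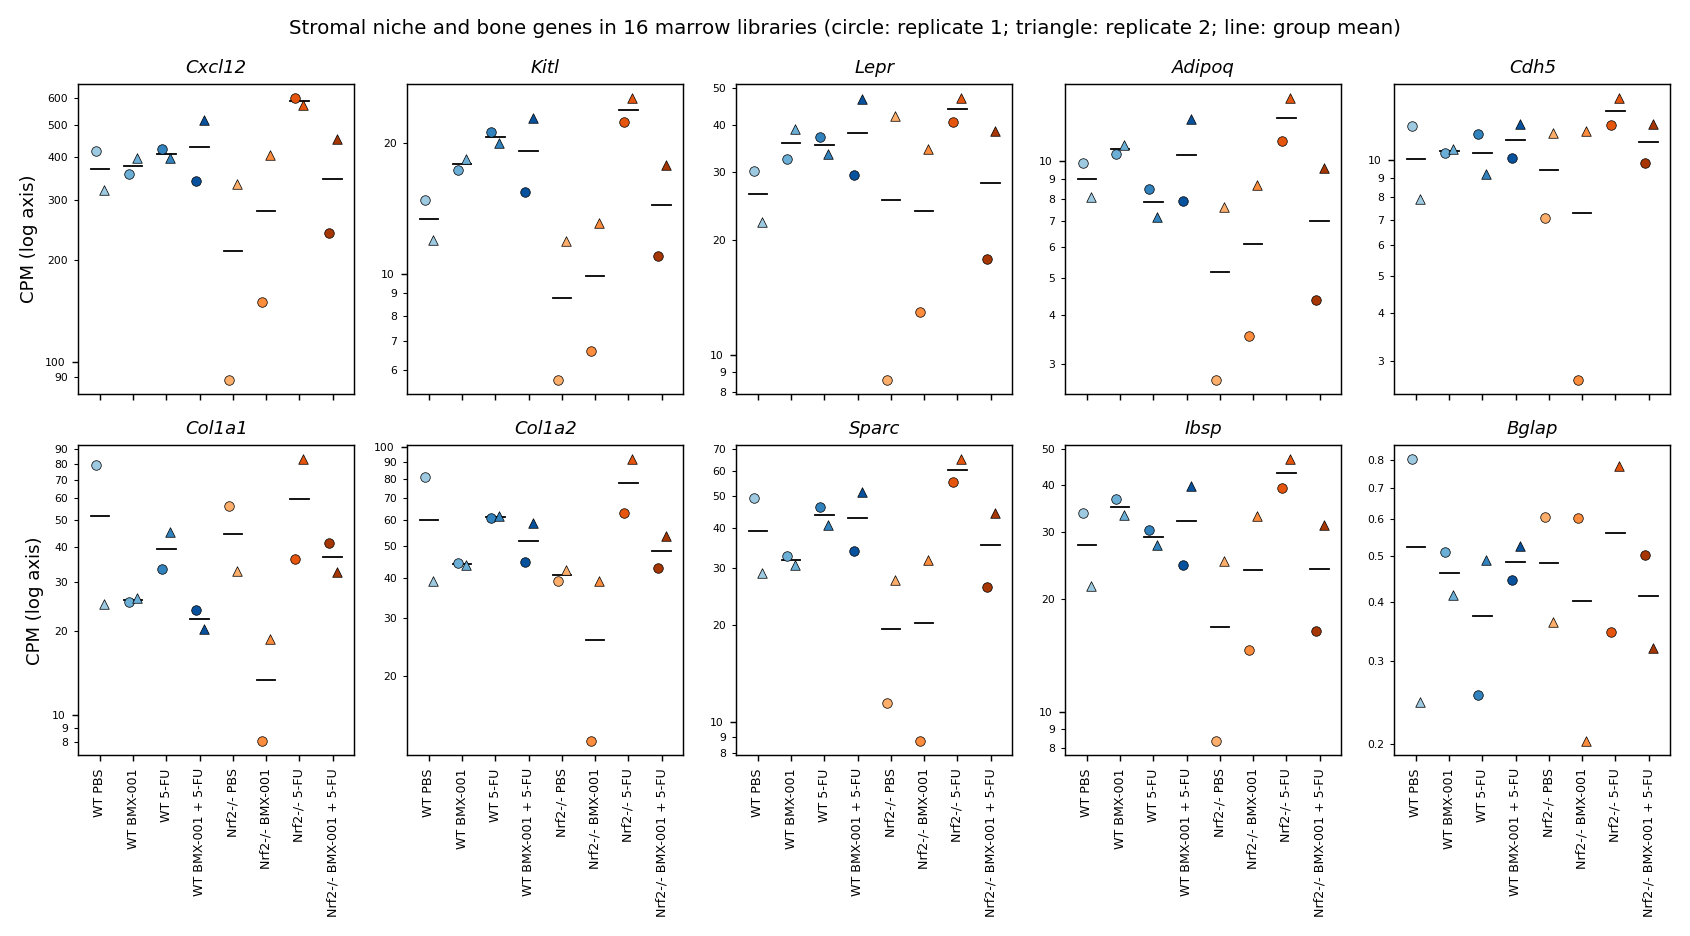
Expression of the 10 genes in CPM (log axis) in the 8 groups, with replicate 1 as a circle, replicate 2 as a triangle and the group mean as a line. Circles of the Nrf2-/- PBS, BMX-001 and combined groups lie far below their triangles for Cxcl12, Kitl, Lepr, Adipoq, Sparc and Ibsp, while Col1a1 and Bglap follow another order.

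The matrix genes differed among themselves. Col1a1 and Col1a2 encode the chains of type I collagen, the main fibre of bone. Col1a1 (ENSMUSG00000001506.11) stood at 78.75 and 25.1 CPM in WT with PBS, 25.5 and 26.4 with BMX-001, 33.6 and 45.6 with 5-FU, and 23.8 and 20.4 with both. With NRF2 absent it stood at 56.6 and 33.0 CPM with PBS, 8.06 and 18.75 with BMX-001, 36.5 and 83.0 with 5-FU, and 41.6 and 32.55 with both. In all 4 matched pairs of groups the mean was lower with BMX-001 than without, as was that of Col1a2. For the other members this held in 1 to 3 of the 4 pairs.

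Col1a2 (ENSMUSG00000029661.17) stood at 80.9 and 39.0 CPM in WT with PBS, 44.3 and 43.8 with BMX-001, 61.0 and 61.5 with 5-FU, and 44.5 and 58.7 with both. Nrf2-/- libraries had 39.1 and 42.3 CPM with PBS, 12.65 and 38.9 with BMX-001, 63.1 and 91.9 with 5-FU, and 42.9 and 53.7 with both. Its 2 Nrf2-/- PBS libraries were nearly equal, unlike those of Cxcl12.

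Sparc (ENSMUSG00000018593.14) stood at 49.4 and 28.9 CPM in WT with PBS, 32.6 and 30.7 with BMX-001, 46.5 and 40.9 with 5-FU, and 33.9 and 51.6 with both. The Nrf2-/- libraries held 11.4 and 27.5 CPM with PBS, 8.70 and 31.75 with BMX-001, 55.2 and 65.3 with 5-FU, and 26.2 and 44.3 with both. Its mean was higher with 5-FU than without in all 4 matched pairs of groups, as were those of Cxcl12, Kitl, Lepr, Col1a2 and Cdh5. For Ibsp and Bglap this held in 3 of the 4 pairs, and for Col1a1 and Adipoq in 2.

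Ibsp (ENSMUSG00000029306.9), whose product binds calcium and cells in mineralising matrix, stood at 33.9 and 21.6 CPM in WT with PBS, 36.9 and 33.4 with BMX-001, 30.4 and 27.8 with 5-FU, and 24.5 and 39.9 with both. Its levels without NRF2 were 8.36 and 25.25 CPM with PBS, 14.6 and 33.2 with BMX-001, 39.5 and 47.0 with 5-FU, and 16.5 and 31.4 with both. Though a bone matrix gene, it followed the niche genes more closely than type I collagen. The Pearson correlation of its log2 CPM over the 16 libraries was 0.962 with Cxcl12, 0.618 with Col1a2 and 0.141 with Col1a1.

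Bglap (ENSMUSG00000074483.3) had only 7 to 29 counts per library, and its counts cannot be assigned with certainty. The mouse genome holds Bglap2 and Bglap3 beside it, and the first 120 coding bases of the 3 show how alike they are. They are read from the GENCODE M21 transcripts (GRCm38) on the minus strand of chromosome 3, exonic and within the coding sequence, and capitals mark bases that differ from Bglap.
Bglap (chr3:88384009-88384415, introns left out): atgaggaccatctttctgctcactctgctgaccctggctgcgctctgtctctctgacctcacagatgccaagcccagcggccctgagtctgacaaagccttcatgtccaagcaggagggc
Bglap2 (chr3:88378244-88378650, introns left out): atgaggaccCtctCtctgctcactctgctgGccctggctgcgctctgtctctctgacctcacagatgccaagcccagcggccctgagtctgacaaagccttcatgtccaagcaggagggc
Bglap3 (chr3:88369130-88369536, introns left out): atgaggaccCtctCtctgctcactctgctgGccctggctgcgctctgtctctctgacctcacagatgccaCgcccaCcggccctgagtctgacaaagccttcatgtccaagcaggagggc
Over the full 288 coding bases Bglap2 differs from Bglap at 4 positions and Bglap3 at 13. Of the 290 stretches of 151 bases, the read length, in the main Bglap transcript, 31.4% occur unchanged in a transcript of Bglap2 and 0 in one of Bglap3. Bglap stood at 0.202 to 0.805 CPM over the 16 libraries and Bglap2 at 0.0263 to 0.474 CPM, and a transfer of reads between them was not tested. With so few counts, sampling alone gives a standard deviation of 0.38 on the log2 scale.

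Before any treatment effect, the spread between the 2 libraries of a group was measured as a pooled standard deviation of log2 CPM. It ran from 0.43 for Kitl to 0.76 for Lepr. Over the 13950 tested genes whose log2 CPM averaged 0 or more, the median was 0.179, and each member's value exceeded that of 90.4% to 98.2% of those genes. The standard deviation expected from counting alone was 0.014 for Cxcl12 and 0.09 for Adipoq, but 0.38 for Bglap, whose replicate value was 0.65. Cxcl12 thus varied between replicates with a standard deviation of 0.67, and Col1a1 with 0.64, at depths where counting would give under 0.05.

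The share of the sum of squares that lay between replicates of a group was lowest for Kitl (26.9%) and next lowest for Col1a1 (32.45%), Col1a2 (35.7%) and Sparc (37.1%). It was 45.1% for Adipoq, 47.2% for Cxcl12 and 47.7% for Ibsp. It reached 61.4% for Cdh5, 64.7% for Lepr and 88.1% for Bglap. If the groups made no difference, the 8 of 15 degrees of freedom between replicates would hold 53.3% on average, and the median gene tested had 41.2%. Of the members, Kitl had the largest share in the 5-FU factor (35.0%) and Col1a1 the largest in the BMX-001 factor (39.4%). For Cxcl12 the 5-FU factor held 20.6% and BMX-001 0.17%. Without the library that stands apart, the replicate standard deviation of Cdh5 was 0.30 in place of 0.60, that of Col1a2 0.35 in place of 0.52 and that of Sparc 0.48 in place of 0.65. Those of Cxcl12 (0.60), Lepr (0.72) and Col1a1 (0.60) moved less, and the median of the 13950 genes was 0.125. The replicate share was then 24.6% for Kitl, 42.8% for Col1a1, 63.1% for Cdh5 and 67.8% for Bglap. This alternative was added after the data were seen.

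**Figure D2:**
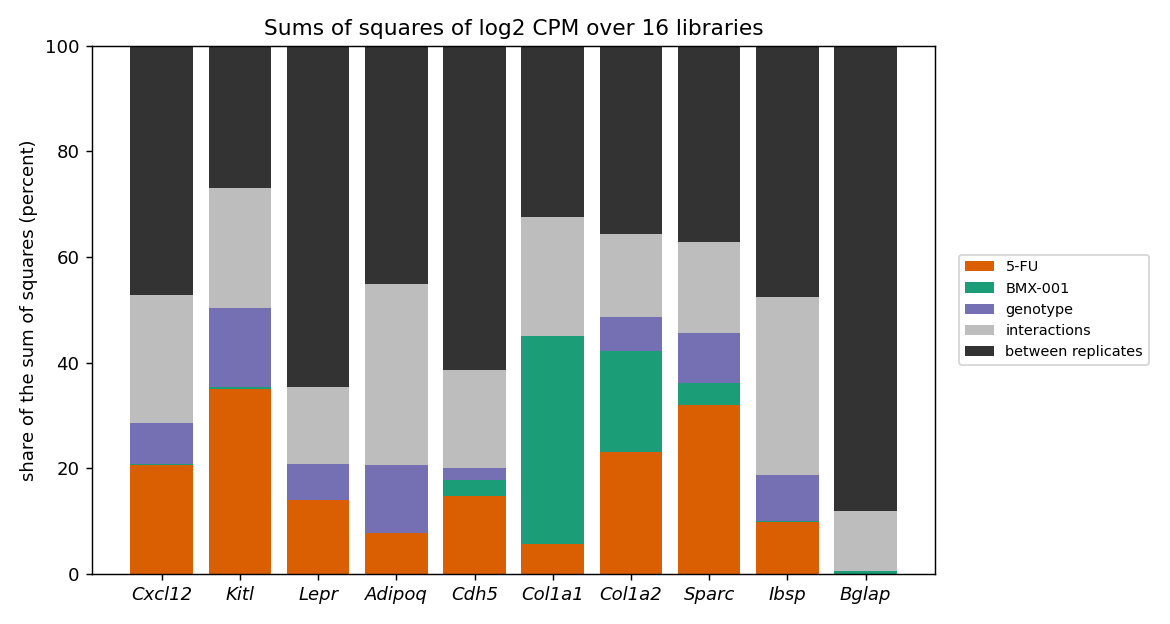
Shares of the sum of squares of log2 CPM over 16 libraries, in percent, for each gene. The dark top part of each bar is the share between replicates, which runs from 26.9% for Kitl to 88.1% for Bglap, and the green part is the BMX-001 share, 39.4% for Col1a1 (orange, 5-FU; violet, genotype; grey, interactions).

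The replicate gaps were shared between genes. In Nrf2-/- PBS, replicate 1 had 26.4% of the Cxcl12 level of replicate 2, 20.4% of Lepr, 33.1% of Ibsp, 35.7% of Adipoq, 41.5% of Sparc and 47.9% of Kitl. Col1a1 and Bglap were higher in that same library. In Nrf2-/- BMX-001, replicate 1 was lower for 9 of the 10 members, the exception being Bglap. In the combined Nrf2-/- group, 8 of 10 were lower in replicate 1. Nrf2-/- 5-FU had 9 of 10 lower in replicate 1, with a smaller median gap of -0.245 on the log2 scale. The combined WT group also had 9 of 10 lower, with a median of -0.58, while WT BMX-001 had 6 and WT 5-FU 3 lower. In WT PBS the difference went the other way, with all 10 members higher in replicate 1, by 0.29 (Adipoq) to 1.65 (Col1a1) on the log2 scale.

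The 6 genes Cxcl12, Kitl, Lepr, Sparc, Adipoq and Ibsp, grouped here after their values were seen, varied together. Over the 16 libraries the Pearson correlation of log2 CPM was 0.865 to 0.97 in the 15 pairs, as a description of libraries that share depth and source. The standard deviation of the log2 ratio ran from 0.16 for Adipoq with Ibsp to 0.39 for Lepr with Sparc. Per 100 CPM of Cxcl12 there were 6.59 to 10.3 CPM of Ibsp and 6.78 to 12.6 CPM of Lepr. By contrast there were 3.96 to 64.1 CPM of Col1a1 per 100 CPM of Cxcl12, and the highest value belonged to Nrf2-/- PBS replicate 1. The correlation of Col1a1 with the 6 was 0.141 to 0.477, and -0.222 to 0.0985 over the 15 libraries without Nrf2-/- BMX-001 replicate 1. Col1a1 correlated with Col1a2 at 0.809, or 0.643 without that library. Col1a2 lay between, with correlations of 0.618 to 0.883 with the 6, or 0.482 to 0.792 without that library.

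**Figure D3:**
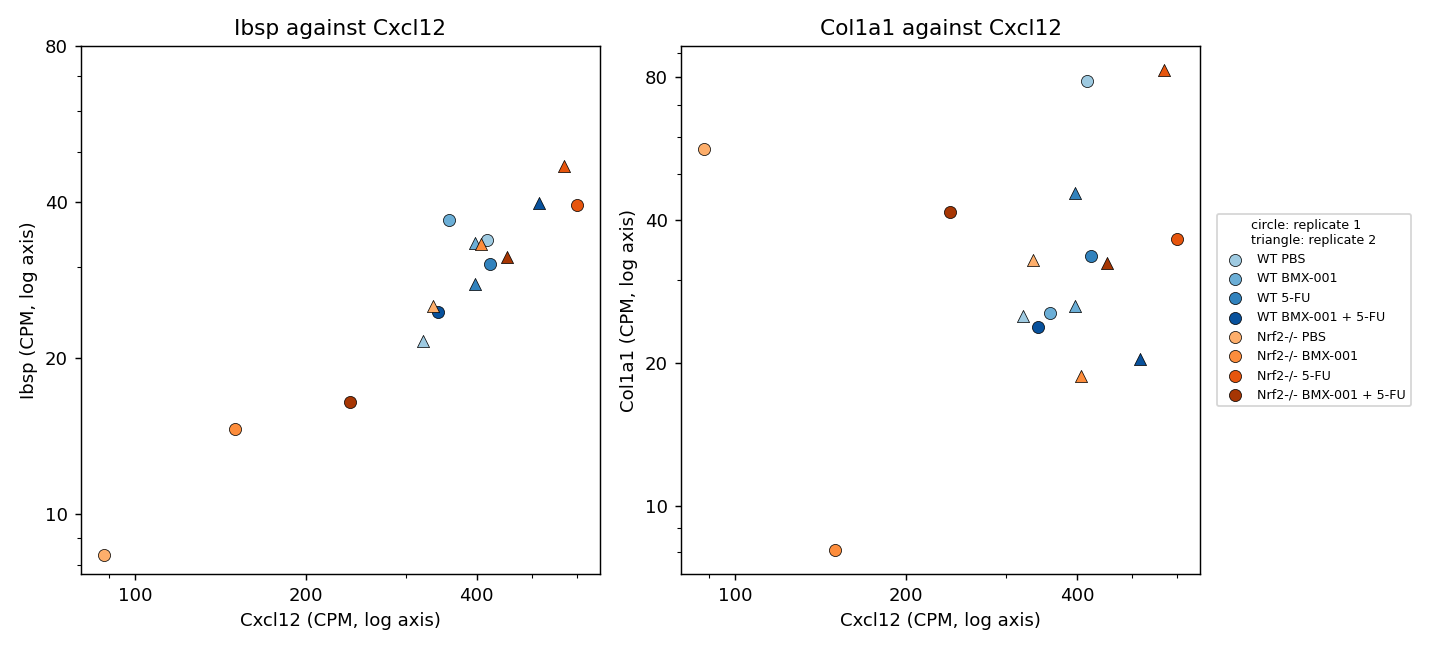
Ibsp (left) and Col1a1 (right) against Cxcl12 in CPM on log axes, 1 point per library, coloured by group, with replicate 1 as a circle and replicate 2 as a triangle. Ibsp is higher where Cxcl12 is higher, and Nrf2-/- PBS replicate 1 is the lowest point for Ibsp at 8.36 CPM but among the highest for Col1a1 at 56.6 CPM.

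Among 13950 genes, those whose log2 CPM was most like that of Cxcl12 over the 16 libraries were Bgn, which encodes the matrix proteoglycan biglycan (r = 0.989), Agt (0.986), the bone morphogenetic protein antagonist Grem1 (0.985), Esm1 (0.985) and Cp (0.983). For Adipoq they were Ibsp (0.970), Cp (0.961), Igfbp7, Fbln5 and Emp1. For Cdh5 they were Fam171a1 (0.966), Igsf3, Ptk7, Galnt2 and the pericyte receptor Pdgfrb (0.953). For Col1a1 they were Smad1 (0.904), Col11a1 (0.901), Slc25a13, Ubash3a and Gtf3c1. With group means removed, r was 0.972 to 0.994 for the neighbours of Cxcl12, 0.923 to 0.977 for those of Adipoq and 0.948 to 0.982 for those of Cdh5. For those of Col1a1 it was 0.919 (Col11a1), 0.83 (Smad1), 0.771 (Ubash3a), 0.706 (Gtf3c1) and 0.606 (Slc25a13). Spearman's rho for Galnt2 with Cdh5 was 0.615, well below its r of 0.954.

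Cxcl12, Ibsp and Adipoq varied together, so the bases before their starts are shown, with those of Col1a2, which followed them less closely. RefSeq promoters of GRCm38.p6 were found for 8 of the 10 members. The 150 bases before the annotated start are shown 5′ to 3′ on the plus strand, all of them outside the transcript. Capitals mark CCAAT and TATAAA on either strand.
Cxcl12 (chr6:117168385-117168534): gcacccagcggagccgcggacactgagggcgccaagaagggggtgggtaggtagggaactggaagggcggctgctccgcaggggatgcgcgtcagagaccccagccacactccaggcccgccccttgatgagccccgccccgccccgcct
Ibsp (chr5:104299137-104299286): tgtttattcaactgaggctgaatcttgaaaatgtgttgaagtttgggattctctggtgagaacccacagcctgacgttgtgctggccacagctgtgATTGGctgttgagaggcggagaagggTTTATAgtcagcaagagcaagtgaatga
Adipoq (chr16:23146386-23146535): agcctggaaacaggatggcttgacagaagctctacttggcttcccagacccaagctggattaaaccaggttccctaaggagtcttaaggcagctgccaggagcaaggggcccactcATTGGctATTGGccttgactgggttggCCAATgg
Col1a2 (chr6:4505468-4505617): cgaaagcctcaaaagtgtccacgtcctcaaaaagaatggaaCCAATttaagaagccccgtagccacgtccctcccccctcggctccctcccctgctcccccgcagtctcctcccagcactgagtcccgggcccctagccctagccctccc
Within 250 bases, Cxcl12 held neither motif, Ibsp held each once on the minus strand, Adipoq held CCAAT 3 times, and Col1a2 held it once. Of 32851 promoter windows, 33.8% held CCAAT and 12.4% held TATAAA. The letters TGACNNNGC, the core of the antioxidant response element that NRF2 binds, were found in windows of Bglap and Lepr and in 10.2% of all windows. Neither CCAAT nor TATAAA was common to all of Cxcl12, Ibsp and Adipoq, which says only that these letters are not in these windows.

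With edgeR's quasi-likelihood test, 0 of the 10 members were called for any difference among the 8 groups at a Benjamini-Hochberg adjusted p under 0.05, where 0.684% of all genes tested were called. Kitl came closest, with an edgeR adjusted p of 0.226. At an unadjusted p under 0.05 stood 1 of the 10 members and 18.3% of all genes. DESeq2 called 1 member, Kitl, at an adjusted p of 0.005, and 10.5% of all genes. Over all alternatives the adjusted p of Kitl ran from 4.38e-15 to 0.401. The lower end came from edgeR without the filter on low counts, and with the filter the lowest was 0.005. The unfiltered fit gave the members 273300 degrees of freedom each, against 9.31 to 12.9 in the main fit.

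5-FU addresses whether a drug that kills dividing blood cells also moves the transcripts of the stroma around them. Averaged over genotype and BMX-001, 8 libraries with 5-FU against 8 without, the medians were higher with 5-FU for all 10 members, but the libraries overlapped for each. Kitl ranged from 11.0 to 25.4 CPM (median 20.6) with 5-FU and from 5.69 to 18.4 CPM (median 12.5) without. The log2 fold change was 0.68 ± 0.18 for Kitl (SE, edgeR adjusted p = 0.0727), 0.76 ± 0.29 for Sparc (adjusted p = 0.211) and 0.52 ± 0.23 for Col1a2 (adjusted p = 0.26). Cxcl12 had 0.53 ± 0.30 (adjusted p = 0.388). The other 6 lay between -0.03 (Bglap) and 0.39 (Lepr). In all, 0 of 10 members were called, against 2.95% of all genes tested, and their median was 0.36 against 0.01 for all genes. Without Nrf2-/- BMX-001 replicate 1 the value of Sparc was 0.59.

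Kitl was the member nearest the threshold, and its call turned on the setting. Its log2 fold change stayed between 0.57 and 0.83 in all 21 alternatives. It was called in 5 of them, with adjusted p from 8.95e-10 to 0.188. The lower end came from edgeR without the filter on low counts, and with the filter the lowest was 0.00486. DESeq2 gave an adjusted p of 0.00486 and called 5.59% of all genes, and leaving out Nrf2-/- PBS replicate 2 gave 0.0247. Leaving out the library that stands apart gave 0.57 ± 0.19 with an adjusted p of 0.115.

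5-FU against PBS within a genotype compares 2 libraries with 2. In WT, 0 of 10 members were called, with 0.00522% of all genes called. Their fold changes had a median of 0.06 on the log2 scale. Kitl had 0.62 ± 0.36 (edgeR adjusted p = 0.457), Lepr 0.42 ± 0.68 and Cxcl12 0.15 ± 0.59. Without NRF2, 0 of 10 were called, with 0.454% of all genes called, and the fold changes were larger, with a median of 1.12. There Sparc had 1.63 ± 0.59, Cxcl12 1.47 ± 0.61, Kitl 1.44 ± 0.37, Ibsp 1.36 ± 0.54 and Adipoq 1.32 ± 0.51. The smallest adjusted p was that of Kitl, 0.153.

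These Nrf2-/- values depended in part on the PBS library with low stromal transcripts. Without Nrf2-/- PBS replicate 1 they stood at 0.82 ± 0.52 for Cxcl12, 1.14 ± 0.67 for Sparc, 0.79 ± 0.51 for Ibsp, 0.77 ± 0.52 for Adipoq and 0.07 ± 0.55 for Lepr. Kitl then stood at 1.014 ± 0.38. Without replicate 2 in its place, Cxcl12 stood at 2.71 ± 0.58 and Lepr at 2.33 ± 0.63. In both fits the remaining PBS library is assumed to vary like the other groups. For this contrast Kitl was called in 2 of 22 alternatives. These were edgeR without the filter on low counts (adjusted p = 3.29e-10) and DESeq2 (adjusted p = 0.00545), where 2.16% and 1.81% of all genes were called.

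The difference in the 5-FU effect between genotypes, averaged over BMX-001, was positive for all 10 members in the main fit. Its median was 0.72 on the log2 scale against 0.01 for all genes. Several members varied together, so their signs are not independent. By edgeR 0 of the 10 were called, and 0% of all genes. At an unadjusted p under 0.05 stood 0 of 10 members and 1300 genes. Col1a1 had 1.25 ± 0.58 (edgeR adjusted p = 0.689) and Lepr 0.26 ± 0.68. Over the 21 alternatives Lepr ran from -0.097 to 1.03 and Bglap from -0.21 to 0.81, while the other members stayed positive. Thus a genotype difference in the response of these genes was not detectable with 2 libraries a group.

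BMX-001 was averaged over genotype and 5-FU in the same way. Col1a1 was the member with the largest difference. It ranged from 8.06 to 41.6 CPM (median 24.6) with BMX-001 and from 25.1 to 83.0 CPM (median 41.0) without, and the libraries overlapped. Its log2 fold change was -1.07 ± 0.29 (95% interval -1.72 to -0.41, edgeR adjusted p = 0.298). Col1a2 had -0.51 ± 0.23 (adjusted p = 0.391). The niche genes were close to 0, with -0.07 ± 0.30 for Cxcl12, -0.06 ± 0.18 for Kitl and -0.04 ± 0.34 for Lepr. The interval for Cxcl12, -0.73 to 0.60 on the log2 scale, spans 0. By edgeR 0 of 10 members were called, and 0% of all genes, while 2 of 10 members and 2444 genes had an unadjusted p under 0.05.

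For Col1a1 the averaged value ran from -1.26 to -0.82 over the 21 alternatives, with adjusted p from 7.1e-37 to 0.634. The value of 7.1e-37 came from edgeR without the filter on low counts, where the members had 273300 degrees of freedom each. Without the library that stands apart it was -0.95 ± 0.32 (adjusted p = 0.314), and for Col1a2 -0.36 ± 0.18.

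**Figure D4:**
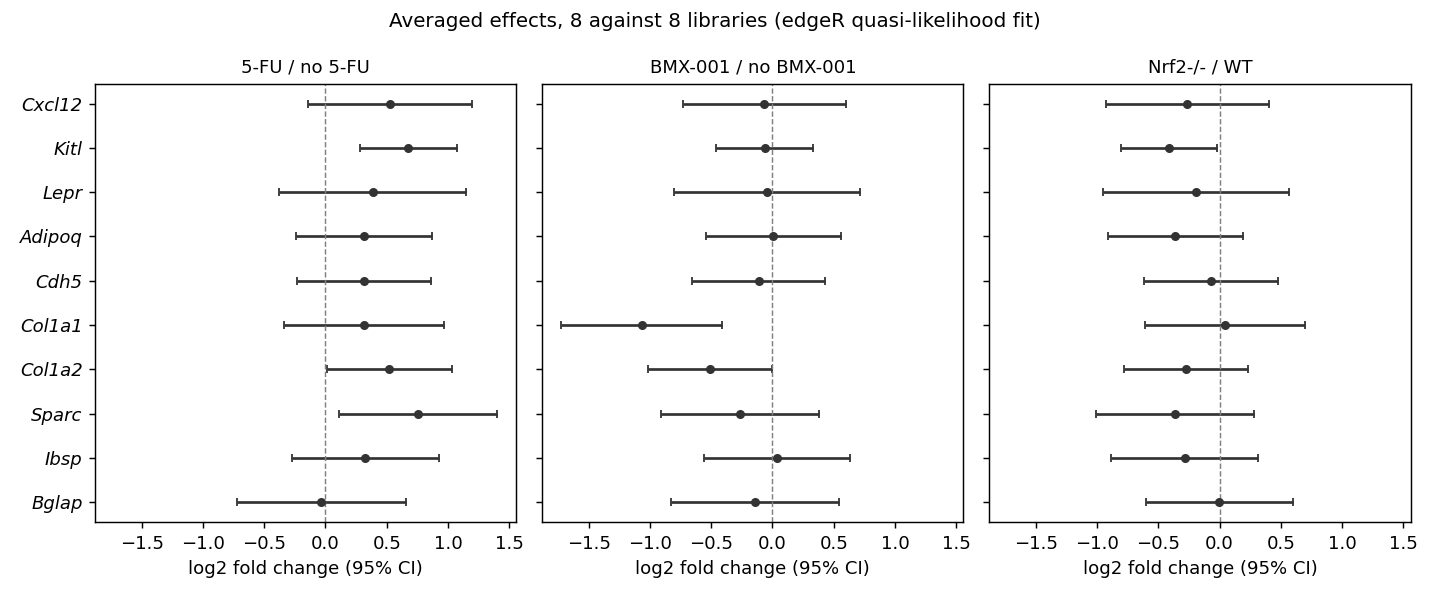
Averaged log2 fold changes of the 10 genes with 95% confidence intervals from the edgeR fit, for 5-FU, BMX-001 and genotype, 8 against 8 libraries each. With 5-FU 9 of the 10 points lie above 0, and with BMX-001 Col1a1 lies farthest from 0 at -1.07.

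Within groups, BMX-001 against PBS gave 0 of 10 members called in WT, with 0% of all genes called and 977 genes at an unadjusted p under 0.05. The Nrf2-/- libraries gave 0 of 10, with 0.00522% of all genes called and 5859 genes at an unadjusted p under 0.05. The Col1a1 value was -1.002 ± 0.58 in WT (edgeR adjusted p = 0.997) and -1.74 ± 0.60 in Nrf2-/- (adjusted p = 0.111). The WT value rests on PBS replicate 1 with its 78.75 CPM, and the alternatives took it from -1.60 to 0.03. DESeq2 called Col1a1 in Nrf2-/- marrow with an adjusted p of 0.048, where it called 7.96% of all genes. Over 22 alternatives the adjusted p ran from 2.74e-23, in edgeR without the filter on low counts, to 0.656. With the filter the lowest was 0.048. That contrast includes the library that stands apart, without which Col1a1 had -1.26 ± 0.78.

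BMX-001 with 5-FU against 5-FU alone asks whether the drug alters the state after chemotherapy. In WT 0 of 10 members were called, with 0% of all genes and 753 genes at an unadjusted p under 0.05. In Nrf2-/- marrow 0 of 10 were called, with 0% of all genes and 499 genes at an unadjusted p under 0.05. The Nrf2-/- values were negative for all 10 members in the main fit, with a median of -0.71. Adipoq had -0.88 ± 0.50, Ibsp -0.85 ± 0.54, Cxcl12 -0.76 ± 0.60 and Kitl -0.73 ± 0.36, all with an edgeR adjusted p of 1. Over 22 alternatives Col1a1 ran from -1.17 to 0.0098 and Bglap from -0.92 to 0.23, while the other members stayed negative. Cxcl12 ran from -1.29 to -0.38, Adipoq from -1.56 to -0.44 and Lepr from -1.30 to -0.20. This contrast and that of 5-FU against PBS share the Nrf2-/- 5-FU libraries, so opposite signs in them are not independent.

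Nrf2-/- against WT, averaged over the 4 treatments, gave 0 of 10 members called, with 0.178% of all genes called. Kitl had -0.41 ± 0.18 (edgeR adjusted p = 0.379), from means of 14.2 CPM in Nrf2-/- and 17.7 CPM in WT marrow. Adipoq had -0.36 ± 0.25, Sparc -0.37 ± 0.29, Cxcl12 -0.26 ± 0.30 and Lepr -0.19 ± 0.34. The median of the 10 was -0.27 against 0.00 for all genes. Without Nrf2-/- BMX-001 replicate 1, Kitl stood at -0.31 ± 0.19 and Cxcl12 at -0.13 ± 0.30. Without that library 0 of 10 members were called in any of the 11 comparisons, while the share of all genes called for 5-FU averaged over the groups was 8.16%.

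Lists of stromal and bone genes, chosen by cell type, were read beside these 10, against a median log2 fold change of 0.01 over all genes tested. The lists include the 10 members, so their medians and calls are not separate from the results above. Cxcl12, Kitl and Lepr are among the niche genes, Adipoq among the fat-cell genes and Cdh5 among the endothelial genes. Col1a1, Col1a2, Sparc, Ibsp and Bglap are among the genes of the osteoblast lineage. For 5-FU averaged over the groups, 2.95% of all genes tested were called. Of 18 niche genes, 0 were called for it, with a median log2 fold change of 0.44. Examples were the binding protein gene Igfbp5 (0.43 ± 0.37), the adhesion gene Vcam1 (0.14 ± 0.15) and Kitl. Of 16 tested genes of the osteoblast lineage 0 were called, with a median of 0.30, and the lineage factor Runx2 had 0.05 ± 0.05. Of 20 fibrous matrix genes 0 were called, with a median of 0.61. Among them 19 were above 0, such as Bgn with 0.55 ± 0.32, and 1 was below, the fibronectin gene Fn1 with -0.61 ± 0.27. Of 19 endothelial genes 0 were called, with a median of 0.49. Among them 18 were above 0 and 1 below, the adhesion gene Pecam1 with -0.05 ± 0.05. Of 10 fat-cell genes 0 were called, with a median of 0.28, and of 8 mural cell genes 0, with a median of 0.33. The same lists had 0 calls for BMX-001 and for genotype averaged over the groups, where 0% and 0.178% of all genes tested were called.

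Markers of other marrow cells moved with some of these values. For 5-FU averaged over the groups 0 of 12 megakaryocyte genes were called, where 2.95% of all genes were called, and their median log2 fold change was 0.44. Their summed level ran from 196 CPM in Nrf2-/- BMX-001 replicate 1 to 1375 CPM in WT 5-FU replicate 1. In Nrf2-/- PBS it was 436 CPM in replicate 1 and 728 in replicate 2, in the same order as Cxcl12. In WT PBS it was 1011 and 267 CPM, a wider gap than that of Cxcl12. The summed level of the niche genes ran from 526 CPM in Nrf2-/- PBS replicate 1 to 1349 CPM in Nrf2-/- 5-FU replicate 2, and that of the endothelial genes from 115 to 267 CPM. The summed 12 macrophage genes ran from 362 to 867 CPM, and 2 of them were called lower in Nrf2-/- marrow, Marco (-3.78 ± 0.42, edgeR adjusted p = 0.00244) and Cd5l (-0.85 ± 0.14, adjusted p = 0.0446), where 0.178% of all genes were called. Of 8 tested osteoclast genes, 0 were called for 5-FU averaged over the groups, where 2.95% of all genes were called, and their sum ran from 896 to 1629 CPM. Most of it was Mmp9 (738 to 1435 CPM), which granulocytes also express, while Ctsk averaged 10.1 CPM. The part of these cells in the values of the 10 members was not tested.

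The receptors of the niche signals sit on blood cells and, for Tek and Kdr, on endothelial cells. Tek ran from 0.502 to 4.90 CPM and Kdr from 2.01 to 16.7 CPM, and they correlated with Cxcl12 at 0.823 and 0.90 over the 16 libraries. Of 11 receptor genes 2 were called for 5-FU averaged over the groups, both lower, where 2.95% of all genes were called. Cxcr4, the receptor of Cxcl12, stood at 393 and 482 CPM in WT with PBS, 385 and 381 with BMX-001, 350.5 and 353 with 5-FU, and 331.5 and 341 with both. Nrf2-/- libraries had 432.5 and 416 CPM with PBS, 353.5 and 356 with BMX-001, 331.5 and 362 with 5-FU, and 291.5 and 289 with both. Libraries with 5-FU reached 362 CPM and those without began at 353.5 CPM, so the sides overlapped slightly. The log2 fold change was -0.27 ± 0.05 (edgeR adjusted p = 0.0174). It passed in 10 of 21 alternatives, with adjusted p from 2.61e-05 to 0.0728, and was lost when any of 11 of the 16 libraries was left out.

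Adipor1, a receptor of adiponectin, stood at 464 to 579 CPM (median 508) in the 8 libraries with 5-FU and at 615 to 858 CPM (median 795) in the 8 without. The sides did not overlap. Adipor1 fell by 0.59 ± 0.06 on the log2 scale (edgeR adjusted p = 0.00026), and the call held in 21 of 21 alternatives with adjusted p up to 0.00241. In WT alone the value was -0.58 ± 0.13 (adjusted p = 0.0884), called in 5 of 22 alternatives with adjusted p from 0.00115 to 0.618. Within Nrf2-/- marrow the change was -0.70 ± 0.13 (adjusted p = 0.0324), and this call passed in 10 of 22 alternatives, with adjusted p from 3.78e-06 to 0.244. Kit, the receptor of Kit ligand, stood at 81.9 to 114 CPM with 5-FU and at 36.6 to 101.2 CPM without, the lowest being the library that stands apart. Kit was not called.

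**Figure D5:**
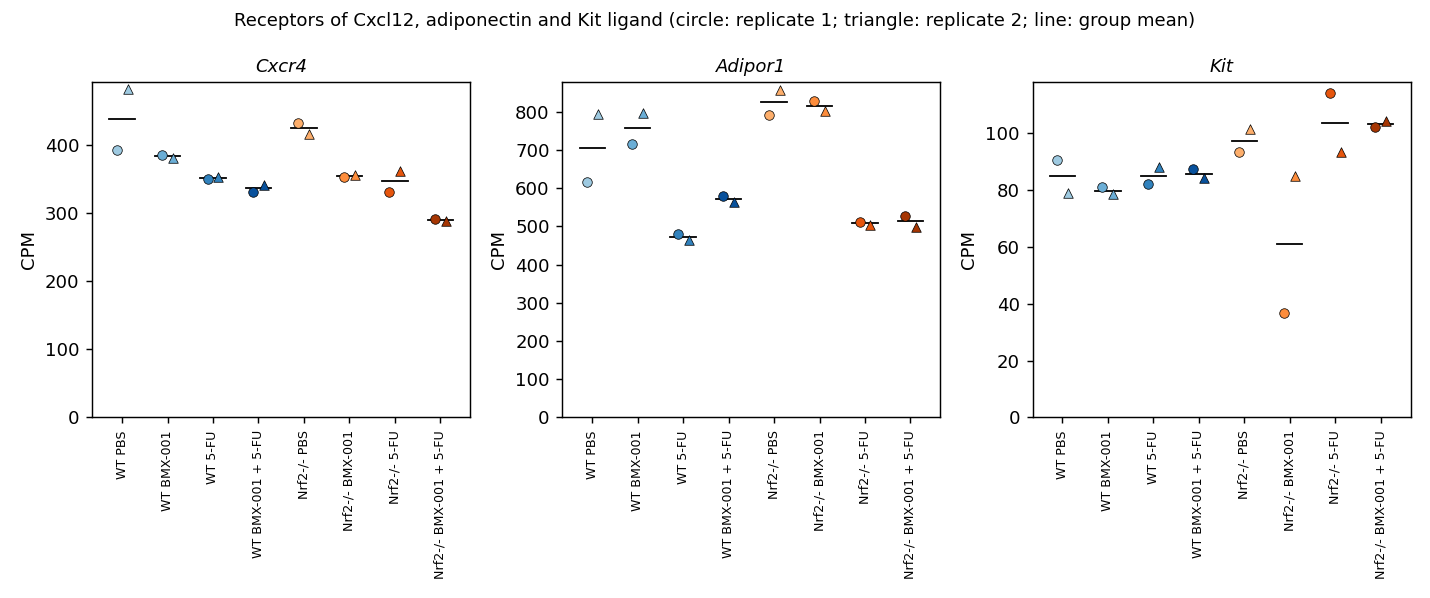
Cxcr4, Adipor1 and Kit in CPM in the 8 groups, with replicate 1 as a circle, replicate 2 as a triangle and the group mean as a line. All 8 libraries with 5-FU lie below all 8 without it for Adipor1 (at most 579 against at least 615 CPM), and the sides overlap for Cxcr4 and Kit.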

How the data were processed

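The deposited table holds raw, whole-number counts by Ensembl gene ID, with 1 column for each of 16 libraries. Per the submitters' processing notes the authors used R 4.3.0, DESeq2 1.38.3, featureCounts, FastQC 0.12.1, Trim Galore 0.6.4 and Salmon 1.4.0, with GRCm39 as the build. Aligner, annotation release and strandedness: not given in the sources used here. Symbols were matched by Ensembl ID for 51880 of 57132 genes. IDs without one held 2.69% of counts.

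Counts were fitted with edgeR 4.0.16 (limma 3.58.1, R 4.3.3): filterByExpr, TMM scaling, 8 group means over 16 libraries, and the robust quasi-likelihood test, with 8 residual degrees of freedom. A gene counted as called below 0.05 after Benjamini-Hochberg adjustment over 19152 genes. The tests were tried on simulated counts. CPM are scaled by TMM, and correlations and spreads use log2 CPM with a prior count of 2. Exon lengths come from GENCODE M21 (GRCm38).

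The members and the 12 gene lists were chosen with earlier results of these data known. Named genes are the 10 members, Nfe2l2, called list members or else up to 3 of the highest expressed in a list, and the 5 genes most correlated with Cxcl12, Col1a1, Adipoq and Cdh5. Other genes named (Malat1, Kit, Tek, Kdr, cell type markers and those in the closing observations) were chosen after their values were seen. Alternatives were DESeq2 1.42.0, its size factors in edgeR, no filter, no robust weights, a replicate block, a prior count of 0.5 for the spreads, only the 2 groups compared, and leaving out each library.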

Additional observations from a re-analysis of the deposited data

How the results depend on the processing

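The fit described above called 0 members in each of 11 comparisons. DESeq2's size factors in edgeR and the fit without robust weights left that at 0 in all 11, and fits of only the 2 groups compared left it at 0 in the 6 they apply to. Without the filter on low counts, members called numbered 8 for any difference, 7 for 5-FU averaged, 7 for 5-FU in Nrf2-/-, 3 for BMX-001 averaged, 1 for BMX-001 in WT, 3 for BMX-001 in Nrf2-/-, 1 and 8 for BMX-001 with 5-FU against 5-FU in WT and Nrf2-/-, 5 for genotype and 6 for the genotype difference in the 5-FU effect. Of all genes that fit called, in the same order, 12.9%, 5.04%, 2.16%, 2.13%, 0.547%, 10.7%, 0.105%, 0.401%, 2.57% and 0.591%. That fit gave the members 273300 degrees of freedom each, against 9.31 to 12.9, and SE of 0.08 to 0.25 against 0.18 to 0.34 for 5-FU averaged. DESeq2 called 1 for any difference, for 5-FU averaged and for 5-FU in Nrf2-/- (Kitl each time), and 1 for BMX-001 in Nrf2-/- (Col1a1). Its shares of all genes were 10.5%, 5.59%, 1.81% and 7.96%.

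Differences between replicates correlated at -0.514 to 0.332 over 28 pairs of groups, with a median of 0.00722 and 11 pairs over 0.1. Replicate 1 was lower for 8 or 9 of the 10 members in each Nrf2-/- group and for 9 in the combined WT group. In WT PBS it was lower for 0, in WT BMX-001 for 6 and in WT 5-FU for 3. Whether replicate numbers paired the samples for these genes was not tested. The replicate block called 1 member for 5-FU averaged, Kitl (0.68 ± 0.15, edgeR adjusted p = 0.0343), and turned the signs of Bglap for 5-FU (0.0095) and Adipoq for BMX-001 (-0.035). DESeq2 turned that of Bglap for genotype (0.0025).

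Leaving out each library gave 0 to 4 members called for 5-FU averaged, 0 to 3 for BMX-001 averaged, 0 to 2 for BMX-001 in Nrf2-/-, 0 to 1 for genotype, 0 to 2 for the genotype difference and 0 to 1 for any difference. The highest counts came without Nrf2-/- BMX-001 replicate 2, where the library that stands apart is the only one of its group and is assumed to vary like the others, with Kitl, Sparc, Cdh5 and Col1a2 called for 5-FU. That fit called 22.7% of all genes for 5-FU averaged, 25.4% for BMX-001 averaged, 44.6% for BMX-001 in Nrf2-/-, 22.1% for genotype, 18.0% for the genotype difference and 41.5% for any difference. In the comparisons of 5-FU, BMX-001 and genotype averaged over the groups, signs turned for values of up to 0.14 in size. For 5-FU, Bglap ran from -0.20 to 0.24. For BMX-001 the ranges were -0.29 to 0.23 for Cxcl12, -0.21 to 0.075 for Kitl, -0.27 to 0.33 for Lepr, -0.38 to 0.12 for Bglap, -0.20 to 0.22 for Adipoq, -0.15 to 0.27 for Ibsp and -0.48 to 0.062 for Cdh5. For genotype they were -0.15 to 0.31 for Col1a1, -0.24 to 0.27 for Bglap and -0.44 to 0.11 for Cdh5. The genotype difference in the 5-FU effect ran, over all alternatives, from -0.097 to 1.03 for Lepr and from -0.21 to 0.81 for Bglap. Within a genotype larger values turned too: for BMX-001 in WT Col1a1 ran from -1.60 to 0.03 and Col1a2 from -0.88 to 0.16, for BMX-001 in Nrf2-/- Ibsp ran from -0.23 to 1.47, and for 5-FU in WT Bglap ran from -1.09 to 0.61. The causes were not tested. Bglap had 7 to 29 counts a library, and each group has 2 libraries.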

Other observations

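The cartilage and skeletal muscle genes served to see what else came with the marrow. The summed level of 8 cartilage genes ran from 0.737 to 2.02 CPM and that of 8 skeletal muscle genes from 7.97 to 15.9 CPM, against 526 to 1349 CPM for the niche genes. Mylpf, a muscle myosin light chain, was the largest part of the muscle sum on average, with 5.02 to 9.57 CPM. The muscle gene Tnnt3 averaged 1.21 CPM but reached 7.29 CPM. The highest muscle sum was that of Nrf2-/- BMX-001 replicate 1, the library that stands apart. Ckm and Mb had at most 13 and 2 counts in a library.

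Not every gene of the stromal lists followed Cxcl12, as these examples, chosen after their values were seen, show. The early B cell factor Ebf1, also expressed in B cell precursors, correlated with it at -0.189 over the 16 libraries, while its relative Ebf3 stood at 0.966. The matrix gene Fn1, the most abundant of its list at 739 CPM, correlated at -0.0439, and the osteoblast factor Runx2 at -0.413. The secreted bone protein gene Spp1 correlated at 0.943 and the osteoblast factor Sp7 at 0.854. These are descriptions over libraries that share depth and source.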
